A study of Mus musculus with 84 samples.

Results

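Prostaglandin E2 is made and sensed by fat tissue, and the chromatin of 10 genes of this pathway was followed in adipocyte nuclei of obese and formerly obese mice. The genes were chosen by name with earlier results of these data known, among them the H3K27ac difference at Ptges. Tests of that difference thus measure a known value again. All 10 genes were found among the 21851 protein-coding genes of the mouse annotation. They comprise the cyclooxygenases Ptgs1 and Ptgs2, the terminal prostaglandin E synthases Ptges, Ptges2 and Ptges3, the prostaglandin D2 synthase Ptgds, the E2 receptors Ptger2, Ptger3 and Ptger4, and the inactivating dehydrogenase Hpgd.

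Cyclooxygenases turn arachidonic acid, which phospholipases free from membranes, into the unstable precursor prostaglandin H2. Terminal synthases convert this precursor into the individual prostaglandins, which leave the cell and act on G-protein-coupled receptors before Hpgd oxidises them. In adipocytes prostaglandin E2 is best known for restraining lipolysis through the receptor encoded by Ptger3, whereas the receptors encoded by Ptger2 and Ptger4 raise cyclic AMP.

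The data were CUT&Tag peak lists, in which an antibody directs a DNA-tagging enzyme to a histone mark, from epididymal fat of male AdipoERCre x NuTRAP mice on a background given as C576BL6. All animals carried both alleles and received tamoxifen before the diets: Cre driven by the adiponectin promoter switches on a reporter that tags adipocyte nuclei with biotin, by which they were pulled down. The group called H was fed high-fat diet for 12 weeks, up to an age of 18 weeks, with C as its chow-fed control. HC was returned to chow for 8 weeks after the same diet and taken at 26 weeks of age, with CC_s as control. A second cohort was fed for 25 weeks, giving HH at 31 weeks of age (control CC_l) and, after 8 weeks back on chow, HHC at 39 weeks of age (control CCC). H3K4me3 marks active promoters, H3K27ac active promoters and enhancers, H3K4me1 enhancers, and H3K27me3 regions silenced by polycomb proteins. The 84 libraries formed 32 groups of mark and diet, 20 with 3 libraries and 12 with 2, labelled as biological replicates. The study describes the marks as assayed side by side on nuclei of the same depot, so libraries of different marks can share animals. For 4 H3K4me3 libraries of the 25-week cohort the treatment field named another group than the title, and titles were used. By title, H3K4me3 marked 7 to 8 of 8 macrophage markers in the HH libraries, 2 in both CC_l libraries and 1 to 3 in CCC.

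A promoter was the window of 2000 bp either side of the coding start sites, and it counted as marked when a peak overlapped it by at least 1 bp. A locus was the gene with 50 kb on either side. For both, the covered bp, that is the base pairs under peaks, were compared by a two-sided exact permutation test with labels permuted within cohorts, the 2 feeding periods being called the 12-week and the 25-week cohort, once for obesity (H against C and HH against CC_l) and once for weight loss (HC against CC_s and HHC against CCC). Genes counted as called at an unadjusted p of at most 0.05, and the Benjamini-Hochberg value over all genes tested is given as adjusted. Of 136 tests of members, 22 were called and none had an adjusted value under 0.05, the lowest being 0.085. Over all genes tested, 2.55% to 27.2% were called in the same tests, depending on mark, window and comparison.

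The libraries listed 11249 to 46397 peaks covering 8.54 to 132.7 Mb, and the read depth of each is not in the files, so a promoter without a peak is one that did not reach the list and not one shown to lack the mark. Coverage differed between groups: H3K27ac peaks covered 42.8 to 49 Mb in C and 9.6 to 24.4 Mb in H, but 94.8 to 108.8 Mb in HHC against 20.9 and 94.3 Mb in CCC. The lower of these is CCC replicate 3, which stood apart with 14917 peaks and is 1 of 2 CCC controls for H3K27ac. Of 8 adipocyte markers, all carried H3K4me3 and H3K27ac at the promoter in every control library, and 5 to 8 did in the diet libraries. Of 8 macrophage markers, H3K4me3 marked 0 to 3 in control libraries, 7 to 8 in HH and HHC, 0 to 8 in H and 0 to 5 in HC. H3K27ac marked 0 to 3 of them in controls and 0 to 8 in diet libraries. Of 5 endothelial markers, H3K4me3 marked 0 to 4 in control libraries, 5 in HH and 3 to 5 in HHC. In H it marked 0 to 5 and in HC 1 to 4. Of 5 lymphocyte markers it marked 0 to 1 in controls, 2 to 3 in HH and 4 to 5 in HHC. In H it marked 0 and in HC 0 to 2. Of 6 mesothelial markers it marked 0 to 3 in control and in diet libraries, and of 6 progenitor markers 0 to 4 and 0 to 5. The part of coverage and of chromatin from other cell types in the results was not tested except where stated.

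Across the 10 promoters, the sharpest difference, known before the genes were chosen, lay at Ptges, which encodes the inducible microsomal prostaglandin E synthase. H3K27ac was found at its promoter in 9 of 9 libraries from chow-fed controls but in 1 of 12 from the diet groups. At the other extreme, Ptges2, Ptges3, Ptger3 and Hpgd carried H3K4me3 in 21 of 21 libraries, and Ptges2 carried H3K27ac in 21 of 21. Ptgs2, the cyclooxygenase induced by inflammation, had no H3K27ac in any of 21 libraries and no H3K4me1 in any of 22, and Ptgds had H3K4me3 in 1 of 21. For comparison, a library marked between 41.7% and 66% of all promoters with H3K4me3, between 17.7% and 55.1% with H3K27ac and between 6.09% and 51.4% with H3K4me1. Averaged over cohorts, the mean number of members marked differed by -1.33 promoters for H3K27ac in obesity, where the SD between libraries of a group was 1.35, and by 1.92 for H3K4me1 after weight loss, with an SD of 1.62. The difference for H3K4me3 after weight loss was 0.583, with an SD of 0.54. The other 5, like that for H3K27ac in obesity, were smaller than their SD. By covered bp, 3 of 9 testable members had less promoter H3K27ac in obesity, where 18.2% of all promoters did, with a median difference of -513.8 bp over the members and -364.5 bp over all genes. After weight loss 1 of 9 had less, where 0.506% of all promoters did. Over the loci 4 of 9 had less H3K27ac in obesity, where 26.5% of all loci did, with medians of -5356 and -1071 bp.

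**Figure D1:**
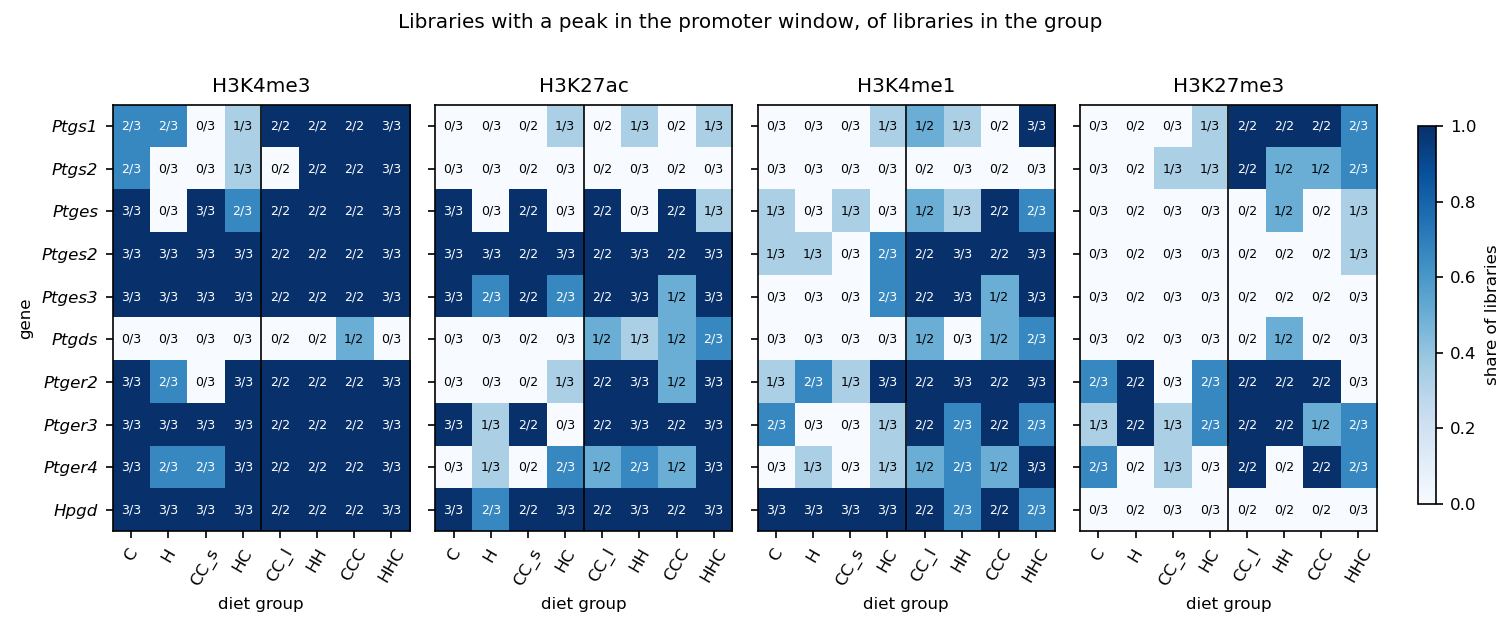
Number of libraries with a peak in the promoter window out of the libraries of each group, for the 10 genes (rows), the 8 diet groups (columns) and the 4 marks (panels); darker blue is a larger share, and the vertical line parts the 12-week from the 25-week cohort. In the H3K27ac panel the Ptges row reads 3/3, 2/2, 2/2 and 2/2 in the controls and 0/3, 0/3, 0/3 and 1/3 in H, HC, HH and HHC.

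The widest H3K4me3 peak over a promoter, in the libraries that had one, followed the order by presence only in part. Its median width was 4586 bp at Ptges3, 4105 bp at Ptger4, 3902 bp at Hpgd and 3627 bp at Ptger3, against 1112 bp at Ptgs2 and 1321 bp at Ptgs1. Ptges2 lay between, with a median of 3384 bp, as did Ptges, with a median of 3190 bp and a range of 736 to 6731 bp. Ranked by total signal within its own library, the H3K4me3 peak lay at a median percentile of 97.6 at Ptges2 and 84.1 at Ptges, but 26.3 at Ptgs2 and 36.6 at Ptgs1. The H3K27me3 peaks of Ptger4 ranked low, at a median percentile of 24.1, and those of Ptgs1 higher, at 77.1, where the widest spanned 25835 bp.

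The cyclooxygenase promoters were weakly marked. Ptgs1, the constitutively expressed enzyme (chr2:36230426-36252272, plus strand, GRCm38), carried H3K4me3 in 14 of 21 libraries and H3K27ac in 3 of 21, none of them a control. Its H3K4me3 covered 0 bp in every CC_s library and 0, 0 and 960 bp in HC, then 1267 and 2156 bp in CCC and 2524, 3849 and 2733 bp in HHC. All 3 HHC libraries were thus above both CCC libraries, whereas HC and CC_s overlapped. The weight-loss difference was 821.9 bp (exact permutation p = 0.05, adjusted 0.687). H3K4me1 at the Ptgs1 promoter was absent from both CCC libraries and covered 1603, 1243 and 2776 bp in HHC, so the promoter counted as gained there, as did 3.98% of all promoters. The weight-loss difference in H3K4me1 was 982.3 bp (exact permutation p = 0.05, adjusted 0.62). H3K4me1 peaks covered 101.3 to 132.7 Mb in HHC and 71.1 to 121.9 Mb in CCC. Each of the 2 Ptgs1 differences kept its call in 2 of the 11 fits that left out a library, and both were lost in windows of 500 bp, with equal numbers of peaks and with a stricter threshold that kept each library's stronger peaks.

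At Ptgs2 (chr1:150100031-150108227, plus strand) H3K4me3 covered 1401 and 1371 bp in HH and was absent from both CC_l libraries. It counted as gained in HH, as did 1.32% of all promoters. The same promoter was marked in both CCC libraries, at 1112 and 1113 bp, and in 2 of 3 C libraries, so its absence was not a feature of all controls. The treatment field puts 1 of the CC_l and both HH libraries in other groups. The macrophage markers Adgre1, Csf1r, Lyz2, C1qa and Ptprc gained H3K4me3 in the same HH libraries. So did the endothelial marker Tie1 and the lymphocyte marker Cd79a, and the part of any cell type in the Ptgs2 gain was not tested. H3K27me3 was listed at the Ptgs2 promoter in 8 of 20 libraries, 4 of 10 control and 4 of 10 diet libraries. No exact permutation test of Ptgs2 reached the threshold.

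Among the synthases, Ptges was described in most detail. The gene lies on the minus strand at chr2:30889471-30929863, and its coding transcripts start at 30903297. Its promoter as given by RefSeq for GRCm38.p6, chr2:30903248-30903547, is shown because the marks differed with diet over it, with matches to the GC box GGGCGG in capitals.

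Ptges promoter: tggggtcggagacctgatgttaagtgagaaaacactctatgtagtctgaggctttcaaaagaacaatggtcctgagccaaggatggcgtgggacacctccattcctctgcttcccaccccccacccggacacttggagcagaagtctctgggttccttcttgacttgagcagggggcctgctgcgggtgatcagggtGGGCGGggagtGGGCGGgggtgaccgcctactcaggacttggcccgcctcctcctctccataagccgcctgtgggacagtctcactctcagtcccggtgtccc

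The sequence reads 5′ to 3′ in the direction of the gene, from 250 bases before to 50 bases after the start. It held 2 GC boxes, at positions -53 and -42, a motif of which 35.9% of 27025 promoters of this length hold at least 1 on either strand. Positions count from 0 at the start. Of the other motifs sought on both strands, none was found: the CRE motif TGACGTCA occurs in 1.88% of promoters. The AP-1 motif TGANTCA occurs in 7.93% and the TATA box, spelled TATAAA, in 14.2%. The C/EBP motif is in 10.8%, the E-box in 7.24% and DR1 in 0.0444%. Its GC content was 60%, against a median of 52.7% over all promoters.

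H3K27ac covered 2468, 2347 and 2422 bp of the Ptges promoter in the C libraries, and none of the 3 H libraries had a peak there. In the 25-week cohort, coverage was 4001 and 2615 bp in CC_l and again 0 in all 3 HH libraries. The obese and control libraries did not overlap in either cohort. The difference averaged -2860 bp (exact permutation p = 0.005, the smallest this design allows, adjusted 0.22).

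After weight loss the H3K27ac peak was also missing from most libraries. Coverage was 896 and 2172 bp in CC_s against 0 in all 3 HC libraries. The CC_s peak that covered 896 bp lay over 1000 bp downstream of the coding start, at the edge of the window. Over the start itself 80% of the 12-week control libraries had a peak. Coverage of the window was 3761 and 2058 bp in CCC, and in HHC it was 0 in 2 libraries and 1759 bp in replicate 2, below both controls. The weight-loss difference averaged -1929 bp (exact permutation p = 0.01, the smallest this design allows, adjusted 0.913). Dividing by each library's total covered bp, an alternative chosen after seeing the data, left -2504 bp in obesity (p = 0.005) and -2909 bp after weight loss (p = 0.01, both exact permutation tests). Each call was kept in every fit that left out a library, 11 for obesity and 10 for weight loss. Without CCC replicate 3 the weight-loss difference was -2354 bp (exact permutation p = 0.025). That library also turned the direction over all promoters after weight loss, from 36 with more and 384 with less H3K27ac without it to 259 and 64 with it. In HH the total coverage of H3K27ac, 76.7 to 85.8 Mb, overlapped that of CC_l, 76.2 to 90.1 Mb, whereas in H it was lower than in C. In bulk nuclei, fewer marked nuclei and less of the mark per nucleus cannot be told apart.

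The loss of H3K27ac at Ptges counted in H, HC and HH, where 1.94%, 0.499% and 0.403% of all promoters were lost. Of the 3185 promoters marked by H3K27ac in all 9 control libraries, Ptges was the only 1 marked in at most 1 of the 12 diet libraries, a comparison chosen after its values were seen. Across all promoters, 18.2% had less H3K27ac in obese libraries by the same test and 0.98% had more. The split was 124 more against 2304 less, and 806 more against 655 less when coverage was taken relative to the library total.

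H3K4me3 at the Ptges promoter was also lower in obesity. It covered 2360, 2424 and 2500 bp in C and was absent from all 3 H libraries, whereas in the 25-week cohort it covered 2240 and 2521 bp in CC_l and 1725 and 822 bp in HH. The groups were apart in both cohorts, but only in H was the mark lost, as it was at 1.71% of all promoters. The difference was -1768 bp (exact permutation p = 0.0167, the smallest this design allows, adjusted 0.739), and 6.2% of promoters had less H3K4me3 by this test. With the 4 libraries grouped by the treatment field the difference was -732.2 bp and p was 0.5 (exact permutation). After weight loss H3K4me3 covered 1931, 736 and 0 bp in HC against 1635, 2354 and 2704 bp in CC_s. In HHC it covered 2116, 3104 and 1483 bp against 3257 and 2468 bp in CCC, and both pairs of groups overlapped. H3K27me3 reached the Ptges promoter in 2 of 20 libraries, 1 of HH and 1 of HHC.

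**Figure D2:**
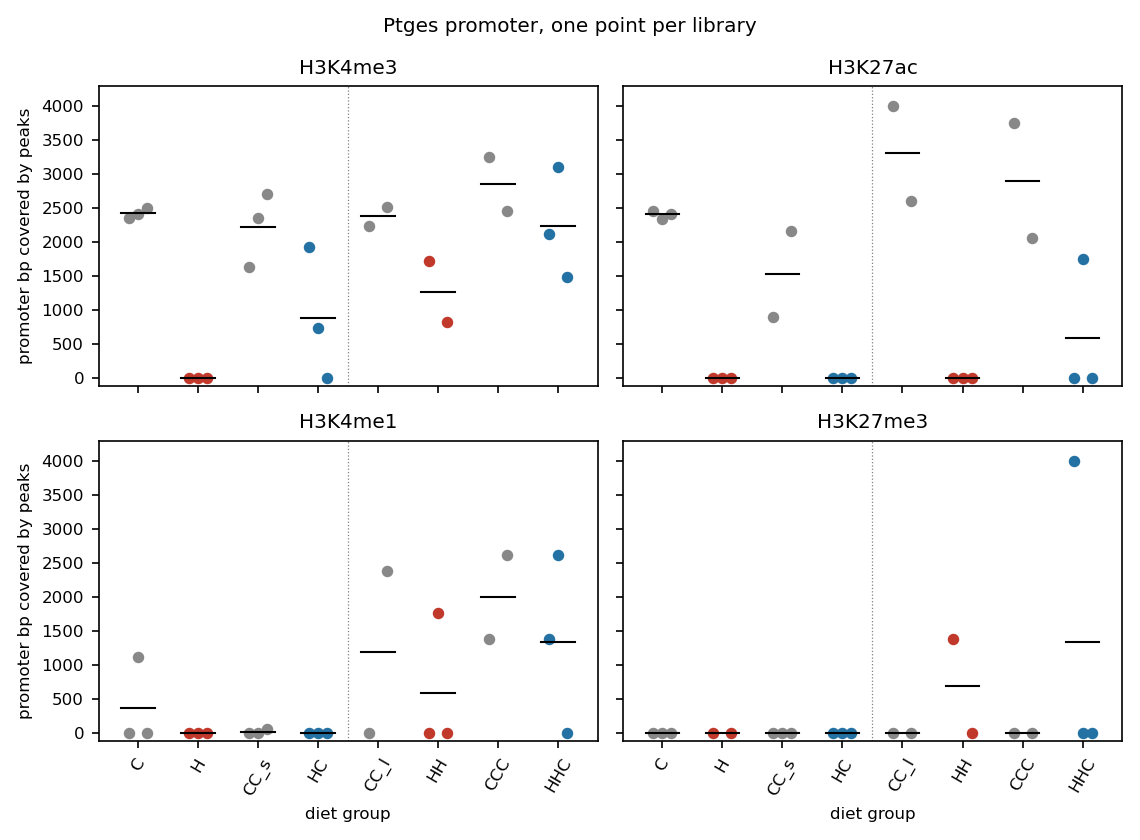
Base pairs of the Ptges promoter window covered by peaks (y axis) in every library of the 8 diet groups (x axis), for each of the 4 marks; points are libraries (grey, chow controls; red, high-fat diet; blue, return to chow), black bars are group means, and the dotted line parts the cohorts. For H3K27ac all control points lie between 896 and 4001 bp and all diet points but 1 lie at 0.

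The locus around Ptges showed the same direction in 3 marks in obesity, in libraries that can share animals. H3K27ac covered 16038, 12080 and 10952 bp of it in C and 2502, 0 and 1402 bp in H. In the 25-week cohort it covered 22082 and 23983 bp in CC_l and 8583, 9483 and 9440 bp in HH. No obese library reached the lowest control of its cohort. The difference was -12793 bp (exact permutation p = 0.005, the smallest allowed, adjusted 0.085), where 26.5% of all loci had less H3K27ac by this test. H3K4me1 differed by -7852 bp (exact permutation p = 0.01, adjusted 0.2), where 7.6% of loci had less. That call was lost without CC_l replicate 1 (exact permutation p = 0.0625) or CC_l replicate 2 (p = 0.1). H3K4me3 differed by -8405 bp (exact permutation p = 0.0333, adjusted 0.961), where 4.99% of loci had less. It was lost without any single H library (exact permutation p = 0.0667) under the treatment field (p = 0.683) and with the stricter peak threshold (p = 0.0667). After weight loss no locus difference at Ptges reached the threshold.

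The difference was not spread evenly over the gene. A processed, non-coding transcript of Ptges, Ptges-204, is annotated to start at 30929863, 26.6 kb upstream of the coding start. Within 2000 bp of that upstream start, which was examined after the values were seen, H3K27ac was present in 9 of 9 control and 9 of 12 diet libraries. The 3 HH libraries covered 2110 to 2452 bp there and the 2 CC_l libraries 2272 and 2313 bp. In the 25-week cohort, the same libraries that had no H3K27ac peak at the coding start thus had one at the upstream start. In the 12-week cohort coverage was lower at the upstream start as well, at 264, 0 and 596 bp in H against 2266 to 2439 bp in C. H3K4me3 was present at the upstream start in 10 of 10 control and 9 of 11 diet libraries.

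**Figure D3:**
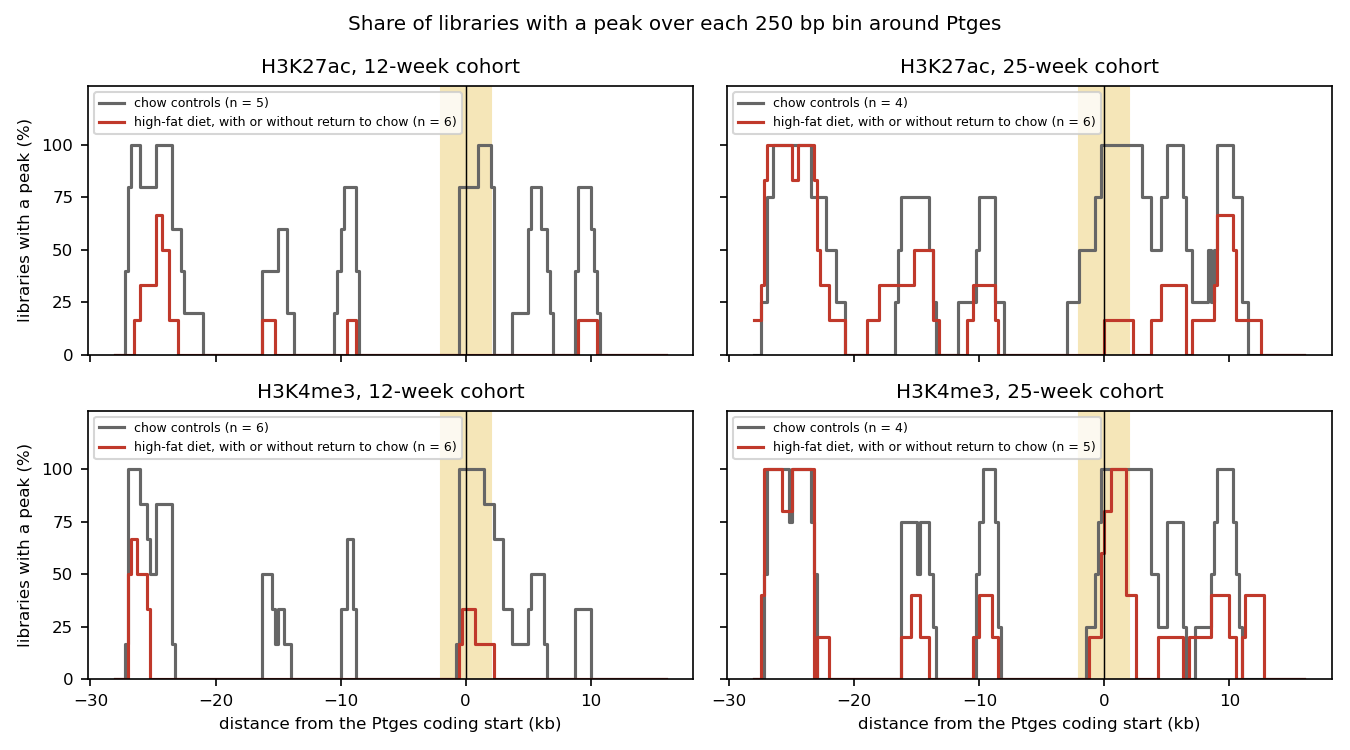
Share of libraries (y axis, percent) with an H3K27ac or H3K4me3 peak in 250 bp bins by distance from the Ptges coding start (x axis, kb, negative values upstream in the direction of the gene), for the 12-week and 25-week cohorts; grey lines are chow controls, red lines are high-fat diet libraries with or without return to chow, and the yellow band is the promoter window. In the 25-week H3K27ac panel both lines reach 100% near the upstream start, and at the coding start the grey line reaches 100% and the red line 16.7%.

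Ptges2 and Ptges3, the membrane-associated and the cytosolic prostaglandin E synthase, had less covered H3K27ac in obesity without losing the mark. At Ptges2 (chr2:32395896-32405772, plus strand) coverage was 2805, 2662 and 1367 bp in C and 1588, 1238 and 324 bp in H. It was 4001 and 3801 bp in CC_l and 1882, 3275 and 1769 bp in HH. The groups overlapped in the 12-week cohort and were apart in the 25-week cohort. The difference was -1410 bp (exact permutation p = 0.025, adjusted 0.241), and relative to the library total it was 220.1 bp in the other direction (p = 0.875, exact permutation). The Ptges2 locus differed by -11162 bp in H3K27ac (exact permutation p = 0.025, adjusted 0.133), a call lost without CC_l replicate 1 (p = 0.0625) and relative to the library total (p = 0.92). This locus also holds 6 neighbouring genes, among them Lcn2, which encodes lipocalin 2.

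At Ptges3 (chr10:128058954-128077272, plus strand), whose protein is also the p23 co-chaperone of Hsp90, H3K27ac covered 1387, 2735 and 2464 bp in C and 366, 0 and 654 bp in H. The 25-week values were 3566 and 3659 bp in CC_l and 2491, 3390 and 2571 bp in HH. Each obese library lay below the controls of its cohort. The difference was -1325 bp (exact permutation p = 0.01, adjusted 0.22), and relative to the library total it was -802.2 bp (p = 0.2, exact permutation). The call was also lost in windows of 500 bp (-302.2 bp, exact permutation p = 0.2) and with equal numbers of peaks (p = 0.065). The locus differed by -5356 bp (exact permutation p = 0.035, adjusted 0.156) and lost the call without CC_l replicate 1 (p = 0.125). Relative to the library total it was 1447 bp in the other direction (exact permutation p = 0.58). Ptges3 had the most CpG-rich of the 10 RefSeq promoters, with 46 CpG sites in 300 bases, more than 98.4% of promoters, and it had no H3K27me3 peak in 20 libraries.

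After weight loss these synthases differed in H3K4me1. The Ptges2 promoter was covered fully, at 4001 bp, in all 3 HHC libraries and at 1260 and 2381 bp in CCC. In the 12-week cohort it was 145, 0 and 526 bp in HC and 0 in all 3 CC_s libraries. The difference was 1202 bp (exact permutation p = 0.02, adjusted 0.62), where 5% of promoters had more, and without any 1 of the HHC libraries p was 0.0667. In windows of 500 bp the difference was 38 bp (exact permutation p = 0.1). The Ptges3 locus had 6214 bp more H3K4me1 (exact permutation p = 0.025, adjusted 0.536), where 6.82% of loci had more, and 3659 bp with flanks of 20 kb (p = 0.08).

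Ptgds (chr2:25466709-25470046, minus strand), which makes prostaglandin D2 and also binds lipophilic ligands, was nearly unmarked at its promoter but differed in the surrounding locus. H3K27ac covered 13117, 16375 and 12119 bp of that locus in C and 3592, 0 and 751 bp in H. In the 25-week cohort it covered 31228 and 21845 bp in CC_l and 19119, 21793 and 12742 bp in HH. Every obese library was below the controls of its cohort. The difference was -10537 bp (exact permutation p = 0.01, adjusted 0.0969). H3K4me1 differed by -8277 bp (exact permutation p = 0.015, adjusted 0.209), with p = 0.075 without CC_l replicate 2. After weight loss H3K4me3 differed by -3625 bp (exact permutation p = 0.03, adjusted 0.507), where 1.75% of loci had less. That call was kept in 3 of 11 fits that left out a library, under the treatment field p was 0.76, and it was lost when each library kept as many peaks as the smallest (exact permutation p = 0.21) or its stronger peaks alone (p = 0.315). The locus holds 8 other genes, so none of these differences can be assigned to Ptgds.

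**Figure D4:**
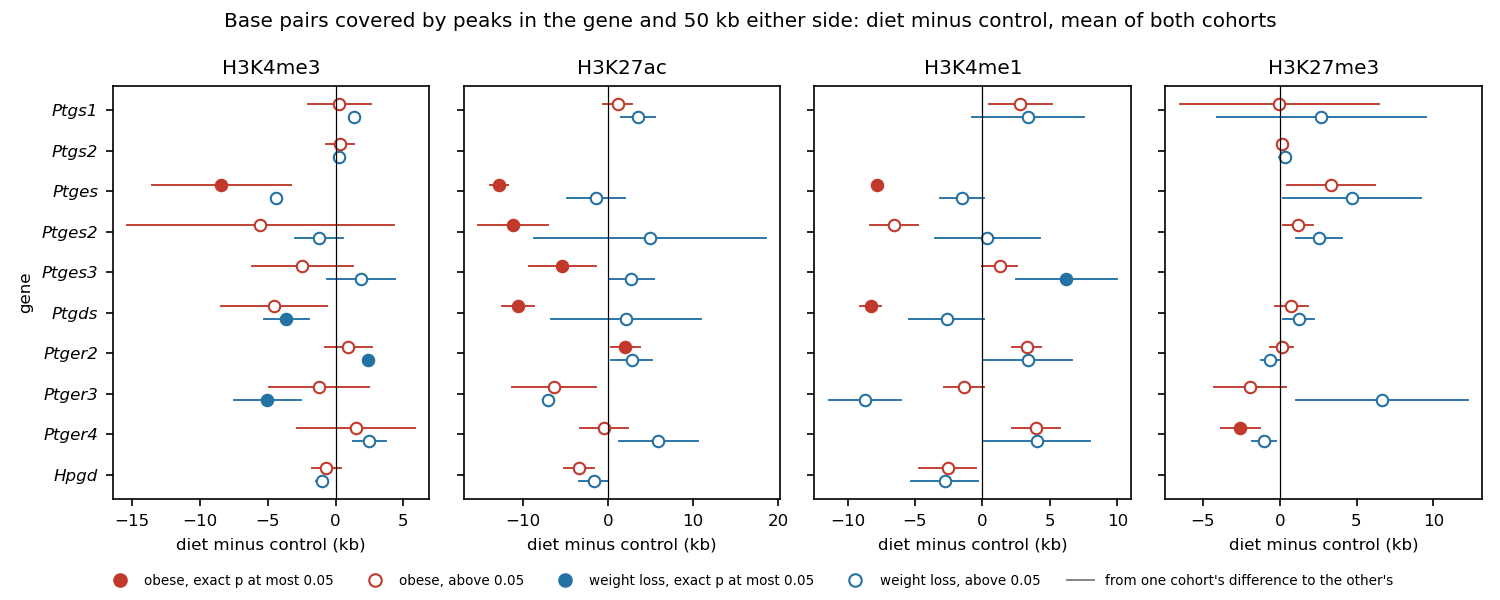
Base pairs covered by peaks in each gene with 50 kb on either side, diet minus control libraries (x axis, kb), for the 10 genes (rows) and 4 marks (panels); circles are means of both cohorts for obesity (red) and weight loss (blue), filled where the unadjusted exact p was at most 0.05, and lines run from the difference in one cohort to that in the other. Ptges has the lowest red circle for H3K27ac, at -12793 bp, and loci marked in fewer than 3 libraries have no circle.

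The promoters of the receptor genes carried H3K27me3 in many libraries beside H3K4me3. H3K27me3 was listed at Ptger2 in 12 of 20 libraries, at Ptger3 in 13 and at Ptger4 in 9, and H3K4me3 in 17, 21 and 19 of 21 libraries. This was not particular to the receptors, since H3K27me3 was also listed at Ptgs1 in 9 of 20 libraries and at Ptgs2 in 8. For comparison, a library marked between 10.3% and 27.1% of all promoters with H3K27me3. Peaks of separate libraries do not show that both marks lie on the same chromosome copy or in the same cells. The promoters of Ptger2 and Ptger4 as given by RefSeq for GRCm38.p6 are shown because they gained or lost H3K4me3 or H3K27me3 with diet, whereas Ptger3 lost H3K27ac alone. The capitals mark a C/EBP match (TTGCNNAA) in Ptger2 (chr14:44987861-44988160, plus strand) and GC boxes, read on the reverse strand as CCGCCC, in Ptger4 (chr15:5244138-5244437, minus strand).

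Ptger2 promoter: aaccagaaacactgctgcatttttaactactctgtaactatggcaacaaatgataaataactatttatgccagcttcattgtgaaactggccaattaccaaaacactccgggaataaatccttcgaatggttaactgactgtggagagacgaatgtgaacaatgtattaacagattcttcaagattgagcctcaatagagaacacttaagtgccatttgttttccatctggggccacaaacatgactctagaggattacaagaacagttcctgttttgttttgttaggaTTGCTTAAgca

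Ptger4 promoter: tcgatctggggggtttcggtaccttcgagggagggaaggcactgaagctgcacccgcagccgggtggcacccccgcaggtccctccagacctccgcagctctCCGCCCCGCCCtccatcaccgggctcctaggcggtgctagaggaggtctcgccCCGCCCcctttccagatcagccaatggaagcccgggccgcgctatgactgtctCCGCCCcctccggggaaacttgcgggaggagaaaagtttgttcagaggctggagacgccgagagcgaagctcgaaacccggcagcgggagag

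Both read 5′ to 3′ in the direction of the gene. They contrasted in composition: Ptger2 had 37.7% GC and 3 CpG sites, whereas Ptger4 had 67% GC, 25 CpG sites and 4 GC boxes, of which a pair overlapped. The C/EBP motif occurs in 10.8% of promoters of this length. The RefSeq start of Ptger2 lies before the coding start at 44988195 that was used for its window.

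At Ptger2 (chr14:44988195-45003820) H3K4me3 was absent from all 3 CC_s libraries and covered 1890, 827 and 2377 bp in HC. The promoter counted as gained in HC, as did 0.32% of all promoters. Total H3K4me3 coverage of these groups overlapped, at 16.4 to 38.1 Mb in CC_s and 16.5 to 33.4 Mb in HC. CC_s stood apart from the other controls, since C covered 2168, 1319 and 1913 bp and CCC 3055 and 2458 bp. HHC covered 3263, 2520 and 3442 bp, of which 1 value lay between those of CCC. The weight-loss difference was 1008 bp (exact permutation p = 0.025, adjusted 0.687), where 5.33% of promoters had more, and without CCC replicate 3 p was 0.0875. The call was also lost in windows of 500 bp (413.5 bp, exact permutation p = 0.1) and with the stricter peak threshold (555.4 bp, p = 0.25). The Ptger2 locus had 2366 bp more H3K4me3 (exact permutation p = 0.01, adjusted 0.507), where 6.66% of loci had more, and with the stricter peak threshold p was 0.1. In all 6 weight-loss libraries that locus was covered further than in any control library of the cohort. Its values were 1890, 827 and 3827 bp in HC against 0 in CC_s, and 7636, 5611 and 7019 bp in HHC against 4645 and 3763 bp in CCC.

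H3K27me3 at Ptger2 went the other way in the older mice. It covered 1859 and 1674 bp in CCC and was absent from all 3 HHC libraries, a loss shared by 0.732% of promoters. In HC it covered 0, 263 and 268 bp against 0 in every CC_s library. H3K27ac at the Ptger2 locus was 2047 bp higher in obesity (exact permutation p = 0.04, adjusted 0.165), where 0.725% of loci had more, but the call was kept in 2 of 11 fits without a library and was lost with flanks of 20 kb (exact permutation p = 0.1) and with either other choice of peaks (p = 0.16).

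**Figure D5:**
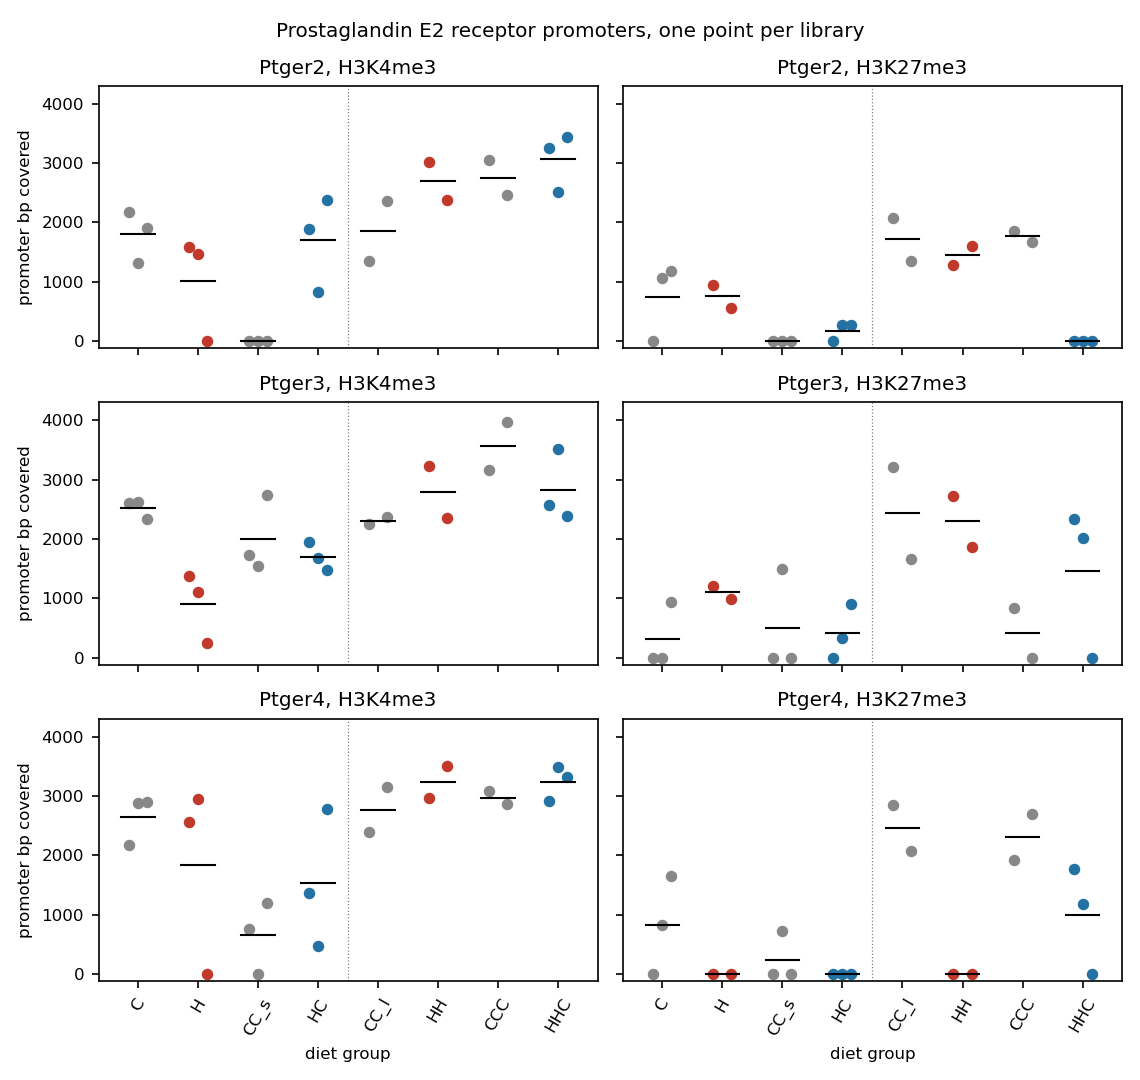
Base pairs of the promoter window covered by H3K4me3 (left) and H3K27me3 (right) peaks (y axis) in every library of the 8 diet groups (x axis) at Ptger2, Ptger3 and Ptger4; points are libraries (grey, chow controls; red, high-fat diet; blue, return to chow), black bars are group means, and the dotted line parts the cohorts. H3K27me3 at Ptger4 is at 0 in both H and both HH libraries, and H3K27me3 at Ptger2 is at 0 in all 3 HHC libraries.

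Ptger3 (chr3:157566892-157645888, plus strand), the receptor through which prostaglandin E2 lowers cyclic AMP in adipocytes, kept H3K4me3 in all 21 libraries. H3K27ac marked its promoter in all 9 controls and in 7 of the 12 libraries after high-fat diet. It covered 1905 and 1404 bp in CC_s and was lost in HC, and in H it covered 0, 0 and 941 bp against 2364, 1619 and 1231 bp in C. In the 25-week cohort all diet libraries were marked. The H3K27ac differences at this promoter gave p of 0.19 to 0.405 (exact permutation), and no promoter difference at Ptger3 reached the threshold.

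Over the Ptger3 locus H3K4me3 was lower after weight loss. It covered 5093, 5079 and 10126 bp in CC_s and 5015, 3949 and 3635 bp in HC, then 17070 and 17112 bp in CCC and 7922, 12626 and 8327 bp in HHC. All weight-loss libraries lay below the controls of their cohort. The difference was -5016 bp (exact permutation p = 0.01, adjusted 0.507), and under the treatment field it was -3221 bp (p = 0.1, exact permutation).

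At Ptger4 (chr15:5206661-5244187, minus strand) H3K27me3 was the only mark with a called test. Its promoter was covered for 2854 and 2070 bp in CC_l and 0 in both HH libraries, a loss shared by 0.943% of promoters. It was covered for 0, 829 and 1650 bp in C and 0 in both H libraries. In HHC the mark was present in 2 of 3 libraries, at 1775 and 1187 bp, against 1923 and 2701 bp in CCC, while it covered 0, 723 and 0 bp in CC_s and was absent from all 3 HC libraries. Over the locus the obese difference was -2578 bp (exact permutation p = 0.0167, the smallest allowed, adjusted 0.29), where 10.2% of loci had less H3K27me3. Without HH replicate 2 or HH replicate 3 p was 0.133 (exact permutation). Total H3K27me3 coverage was 16.9 to 20 Mb in H and 43 to 64.1 Mb in C. Relative to the library total the difference was -1693 bp (exact permutation p = 0.0167). The call was lost with equal numbers of peaks (-1706 bp, exact permutation p = 0.167) and with the stricter peak threshold (-1568 bp, p = 0.333). H3K27ac at the Ptger4 promoter was marked in 2 of 9 control and 8 of 12 diet libraries, including 3 of 3 HHC, and its covered bp did not pass the test. H3K4me3 covered 15215 and 16035 bp of the locus in HH against 8715 and 10825 bp in CC_l. It covered 15213, 14728 and 16094 bp in HHC against 10526 and 12798 bp in CCC. By title the 25-week groups were thus apart, and the 12-week groups overlapped. The obese and weight-loss differences gave p of 0.567 and 0.135 (exact permutation). The treatment field names other groups for 4 of the 25-week H3K4me3 libraries.

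Hpgd (chr8:56294585-56321043, plus strand), whose product inactivates prostaglandins, carried H3K4me3 in 21 of 21 libraries, H3K27ac in 20 of 21 and H3K4me1 in 20 of 22, and no H3K27me3 in 20. Its H3K27ac covered 3529, 3295 and 3041 bp in C and 1131, 0 and 624 bp in H, but 3076 and 3437 bp in CC_l and 2387, 3980 and 4001 bp in HH. The 12-week groups were thus apart and the 25-week groups overlapped. No test of Hpgd averaged over cohorts reached the threshold.

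The merged peak regions within the 10 loci numbered 96 for H3K4me3, 81 for H3K27ac, 79 for H3K4me1 and 83 for H3K27me3. Of the H3K27ac regions 7 were lost in H, where 2.88% of all 74952 such regions were lost, and 4 of the H3K4me3 regions were, where 2.89% of 75256 were. Beside promoters already described, the regions with the largest summed differences lay around Ptges, Ptges2, Ptgds, Ptger3 and Ptgs1. An H3K4me3 region within the annotated gene 9382 bp upstream of the Ptges coding start (chr2:30911758-30913600) was marked in 3 of 3 C and 0 of 3 H libraries. In the weight-loss groups it was marked in 0 of 3 HC and 1 of 3 HHC libraries, against 1 of 3 CC_s and 2 of 2 CCC.

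A region 107422 bp downstream of the Ptger3 start differed in 3 marks. H3K27ac there (chr3:157673436-157675207) was present in every C, CC_l and CCC library and in 1 of 2 from CC_s, and the only diet library to carry it was 1 from HH. H3K4me3 at the same place was in 3 of 3 C libraries and no H library, and H3K4me1 in 2 of 3 C libraries, both CC_l and both CCC libraries but no diet library. The reference marks 100% of this region as repeat sequence, and reads from repeats can map to more than 1 place. Around Ptgds, H3K27ac regions upstream of its promoter (chr2:25471413-25475220) and in Abca2 (chr2:25434926-25438014) were marked in 3 of 3 and 2 of 3 C libraries and in no H library. Each was in 2 of 2 CC_l and 1 of 3 HH libraries. The Abca2 region counted as lost in HC, with 2 of 2 CC_s libraries marked, and was in 1 of 2 CCC and 1 of 3 HHC libraries. The region upstream of the promoter went the other way there, in 1 of 2 CCC and 3 of 3 HHC libraries. That region reaches the promoter window only in other libraries, since no C library had a peak in that window. An H3K4me1 region 17530 bp upstream of Ptgds (chr2:25484874-25490277) was marked in 3 of 3 CC_s and 0 of 3 HC libraries. At Ptges2, an H3K4me1 region 13162 bp downstream of the start (chr2:32408095-32410021) was in all CC_s and CC_l libraries but in none from HC or HH. An H3K27me3 region in the Ptgs1 locus, 46130 bp downstream of the start (chr2:36275604-36277507), was in both H and all 3 HC libraries and in none from C or CC_s. The same region was in 1 of 2 HH libraries and in none from CC_l. In the older weight-loss groups it went the other way, in 1 of 2 CCC libraries and in none from HHC.

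Of 27 other genes of eicosanoid synthesis, transport and signalling, few passed the same promoter test. For H3K27ac in obesity 18 could be tested, of which 3 had less and 1 had more, against 18.2% and 0.98% of all promoters. The 3 were Pla2g16, an adipocyte phospholipase (-1340 bp, exact permutation p = 0.005), Fam213b, a prostaglandin F synthase (-789.4 bp, p = 0.01), and the carbonyl reductase Cbr1 (-658.9 bp, p = 0.04). Hpgds, the haematopoietic prostaglandin D synthase, had 809 bp more (exact permutation p = 0.05). Their adjusted values were 0.22 to 0.261. For H3K4me3 in obesity 1 of 22 genes had less, Cbr1, against 6.2% of all promoters. After weight loss 2 of 22 had more H3K4me3, Pla2g4a and Ptgir, against 5.33%. For H3K4me1 and H3K27me3, 1 gene each passed, Ptgr1 of 18 with more H3K4me1 after weight loss, where 5% of all promoters had more, and Alox15 of 15 with less H3K27me3 in obesity, where 11.6% of all promoters had less. Over the loci, 5 of 25 genes had less H3K27ac in obesity, against 26.5% of all loci, and 1 had more after weight loss, against 2.46%. For H3K4me1, 2 of 26 had more and 2 had less in obesity, against 10.8% and 7.6%, and 1 had more after weight loss, against 6.82%. For H3K27me3, 3 of 26 had less in obesity, against 10.2%, and after weight loss 3 had more and 2 had less, against 5.49% and 10.1%. For H3K4me3, 2 of 25 had more after weight loss, against 6.66%.

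By presence, Hpgds gained H3K4me3 and H3K27ac in HH and H3K4me1 in HHC, where 1.32%, 0.448% and 3.98% of all promoters were gained. Alox5ap, which presents arachidonic acid to 5-lipoxygenase, gained H3K4me3 in HH. In HHC 4 of the 27 genes gained H3K27ac, where 2.32% of all promoters did: the phospholipase gene Pla2g4a, the E2 receptor gene Ptger1, the thromboxane receptor gene Tbxa2r and the prostaglandin reductase gene Ptgr1. Tbxa2r and Ptgr2, another prostaglandin reductase, gained H3K4me1 in HH, where 2% of all promoters did, and Tbxa2r and Ptgr1 gained it in HHC. Total H3K27ac coverage was higher in HHC than in either CCC library. For H3K27me3, the prostaglandin F receptor gene Ptgfr gained it in H and HHC and the thromboxane synthase gene Tbxas1 in HHC, where 1.29% and 1.37% of all promoters were gained. The prostaglandin transporter gene Slco2a1 lost it in H and the prostacyclin receptor gene Ptgir in HH, where 1.61% and 0.943% were lost. Hpgds and Alox5ap are also expressed by macrophages, whose markers Csf1r and Tyrobp gained H3K27ac in the same HH libraries, and their share in these gains was not tested. None of the 27 genes lost H3K27ac or H3K4me3 at its promoter in any comparison. Losses were rare over all promoters as well, at 0.0686% to 1.94% per comparison for H3K27ac and 0.0183% to 1.71% for H3K4me3.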

How the data were processed

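The material was 84 CUT&Tag libraries of adipocyte nuclei. The authors trimmed, aligned and filtered the reads and called peaks per library. The submitters' processing notes name Trim Galore 0.6.6, Bowtie2 2.4.4, SAMtools 1.13, bedtools 2.30 and SEACR 1.3, and the methods state the stringent setting, keeping the top 0.01 of signal blocks. The deposited signal columns hold the authors' unscaled coverage summed and at its maximum per peak, so they were not compared between libraries. The study states a minimum number of reads per sample, but the depth of each library is unknown and no interval that needs it is given. Peaks had been called on single libraries, which were treated as replicates, and no 2 were identical.

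Peaks were intersected with 41438 coding start sites of 21851 genes of GENCODE on GRCm38 in Python 3.11.15 with numpy 2.4.6 and pandas 2.3.3 (figures with matplotlib 3.10.9). A gene was tested for a mark if a peak lay in its window in at least 3 libraries. The statistic was the mean difference in covered bp, diet minus control, averaged over both cohorts, in a two-sided exact permutation test within cohorts. A promoter or region was lost when present in every control and no diet library, and gained in the reverse case. The scripts were tested on simulated data. P-values measure the spread between libraries.

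The members and the lists of pathway and marker genes were chosen with earlier results of these data known, among them the H3K27ac difference at Ptges. Members were given a test value when their unadjusted p was at most 0.05 and otherwise a range. Other genes were named when gained, lost or called, at most 6 per list, and regions by the summed difference in the share of libraries marked, at most 4 per mark. Alternatives were a window of 500 bp, flanks of 20 kb, an overlap of 200 bp, equal numbers of peaks, a stricter peak threshold that kept each library's stronger peaks, the treatment field, replicate blocks and leaving out each library.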

Additional observations from a re-analysis of the deposited data

Results flagged for a closer look

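For 136 tests of members, the difference between diet and control libraries in the 12-week cohort was also compared with that in the 25-week cohort by an exact permutation test of the difference itself, unadjusted, and 7 of them gave p of at most 0.05. A threshold of 0.05 passes up to 1 in 20 tests by chance, and 7 of 136 is close to that share. Values are diet minus control covered bp. No explanation was tested, and total peak coverage differed between diet and control libraries in the 12-week cohort.

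At the Ptges2 promoter, H3K4me3 in obesity was -1359 bp in the 12-week and 553.5 bp in the 25-week cohort, a difference of -1912 bp (exact permutation p = 0.0167). Over the Ptges2 locus it was -15353 and 4280 bp, a difference of -19632 bp (exact permutation p = 0.05). The Ptger3 promoter had -1611 and 488.5 bp of H3K4me3, a difference of -2100 bp (exact permutation p = 0.0333). Over the Ptger3 locus the values were -4918 and 2468 bp, a difference of -7386 bp (exact permutation p = 0.0333). The Ptger2 locus had -780.7 and 2652 bp of H3K4me3, a difference of -3433 bp (exact permutation p = 0.05). For all these H3K4me3 values the 25-week cohort compares HH with CC_l by title. The treatment field names other groups for both HH libraries and 1 CC_l library, and the comparison of cohorts was not repeated with it. H3K27ac at the Hpgd promoter was -2703 and 199.5 bp in obesity, a difference of -2903 bp (exact permutation p = 0.05). H3K27me3 at the Ptger2 promoter was the only 1 of the 7 seen after weight loss, at 177 bp in the 12-week and -1766 bp in the 25-week cohort, a difference of 1944 bp (exact permutation p = 0.02).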

How the results depend on the processing

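With windows of 500 bp, the number of promoters called was 533 (from 907) for H3K4me3 in obesity, 454 (from 1033) for H3K4me3 after weight loss, 1517 (from 2428) for H3K27ac in obesity, 185 (from 323) for H3K27ac after weight loss, 388 (from 696) for H3K4me1 in obesity, 273 (from 685) for H3K4me1 after weight loss and 556 (from 887) for H3K27me3 in obesity. With the treatment field the number was 630 (from 1033) for H3K4me3 promoters after weight loss and 789 (from 1586) for H3K4me3 loci after weight loss. With equal numbers of peaks it was 440 (from 696) for H3K4me1 promoters in obesity and 408 (from 685) for H3K4me1 promoters after weight loss. With the stricter peak threshold it was 403 (from 696) for H3K4me1 promoters in obesity and 364 (from 685) for H3K4me1 promoters after weight loss. Relative to each library's total coverage, an alternative chosen after seeing the data, it was 1251 (499 more, 752 less) against 907 (2, 905) for H3K4me3 promoters in obesity, 3121 (1554 more, 1567 less) against 947 (5, 942) for H3K4me3 loci in obesity, 1030 (601 more, 429 less) against 1033 (778, 255) for H3K4me3 promoters after weight loss, 2878 (1299 more, 1579 less) against 1586 (1256, 330) for H3K4me3 loci after weight loss, 1461 (806 more, 655 less) against 2428 (124, 2304) for H3K27ac promoters in obesity, 3226 (1389 more, 1837 less) against 4847 (129, 4718) for H3K27ac loci in obesity and 683 (298 more, 385 less) against 323 (259, 64) for H3K27ac promoters after weight loss. For the others it was 2209 (1062 more, 1147 less) against 573 (438, 135) for H3K27ac loci after weight loss, 767 (471 more, 296 less) against 685 (563, 122) for H3K4me1 promoters after weight loss, 3753 (1934 more, 1819 less) against 1557 (1221, 336) for H3K4me1 loci after weight loss, 894 (663 more, 231 less) against 887 (104, 783) for H3K27me3 promoters in obesity, 3836 (2691 more, 1145 less) against 2370 (501, 1869) for H3K27me3 loci in obesity, 826 (271 more, 555 less) against 1035 (209, 826) for H3K27me3 promoters after weight loss and 4097 (2476 more, 1621 less) against 2868 (1007, 1861) for H3K27me3 loci after weight loss. On that scale 18 of the 22 called tests of members kept their call, 2 lost it and 2 turned their direction, Ptges2 promoter H3K27ac in obesity to 220.1 bp and Ptges3 locus H3K27ac in obesity to 1447 bp. The cause was not tested. Leaving out 1 library at a time moved the number called, and the library is named where it did so by over 1.5 times. The H3K4me3 range was 489 (without C replicate 2) to 2063 (without CC_l replicate 1) promoters and 603 (without C replicate 2) to 3609 (without CC_l replicate 1) loci in obesity, and 509 (without HHC replicate 3) to 1391 promoters and 687 (without HHC replicate 3) to 2666 (without CC_s replicate 3) loci after weight loss. The H3K27ac range was 1633 to 2517 promoters and 2935 (without CC_l replicate 1) to 5200 loci in obesity, and 84 (without HHC replicate 3) to 1073 (without HC replicate 1) promoters and 123 (without HHC replicate 3) to 1697 (without HC replicate 1) loci after weight loss. The H3K4me1 range was 286 (without HH replicate 2) to 745 promoters and 2043 (without CC_l replicate 2) to 3693 loci in obesity, and 125 (without HHC replicate 3) to 704 promoters and 827 (without HHC replicate 3) to 2019 loci after weight loss. The H3K27me3 range was 444 (without HH replicate 3) to 902 promoters and 1099 (without CC_l replicate 1) to 2401 loci in obesity, and 667 (without CCC replicate 3) to 953 promoters and 2062 to 3050 loci after weight loss. In no such fit did the difference in members marked move by more than 1 SD. Of the 234 such fits of called member tests 185 kept the call. Without C replicate 1, 2 or 3 the smallest p for H3K27me3 in obesity is 0.0556, so no test was made. Replicate numbers were not used to pair libraries in the main tests. Of 36 same-numbered pairs 2 correlated above 0.1, in a range of -0.263 to 0.211. In groups of 2 or 3 libraries such correlations cannot show that the numbers carry no pairing. With a replicate block the 8 differences in members marked lay between -1 and 1.58, and no call could be reached because the smallest p is 0.0625 to 0.25. Flanks of 20 kb kept 11 of 13 calls, equal numbers of peaks 16 of 22, the stricter threshold 14 of 22, the treatment field 2 of 7 and the window of 500 bp 4 of 9. H3K27ac at Ptges kept its promoter and locus calls in obesity and its promoter call after weight loss under each of these that applied. Groups of 2 or 3 libraries limit every p.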
